A study of Mus musculus with 6 samples.

Results

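The neurotrophin and growth factor genes described here are Ntrk2, Ntrk3, Ngfr, Bdnf, Ntf3, Gfra1, Ret and Cntf, which are 8 of the 35275 genes in the count table. They were chosen by name, and all 8 were found through their Ensembl identifiers. Bulk RNA-seq of whole spinal cord compared 3 Sox2 cKO mice (mGfap-Cre:Sox2fl/fl), in which Cre under the mouse Gfap promoter removes floxed Sox2 in astrocytes, with 3 Ctrl mice. The mice were C57BL/6 adults, with an age of postnatal day 90 in one label and postnatal day 80 in another. The labels give the Ctrl mice as mGfap-Cre:Sox2+/+, the description of the series gives Cre or floxed mice, and the paper gives floxed littermates. The tissue was not sorted, so the RNA came from all cells of the cord. In such bulk tissue, fewer cells of a type and less RNA per cell cannot be told apart.

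Neurotrophins are secreted proteins that bind Trk receptor kinases with high affinity and the p75 receptor with lower affinity. BDNF acts through TrkB, which Ntrk2 encodes, and NT-3 acts mainly through TrkC, which Ntrk3 encodes. Neurons carry the full-length TrkB kinase, whereas astrocytes carry mostly a truncated TrkB that lacks the kinase domain. Ligands of the GDNF family bind a GFRα co-receptor that is anchored to the membrane, and the pair then activates the RET kinase. CNTF, known for keeping motor neurons alive, signals through CNTFRα, LIFR and gp130.

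Columns of the tables are named by number only. The even numbers, 2, 4 and 6, were assigned to Ctrl and the odd numbers, 1, 3 and 5, to Sox2 cKO, as the study numbers its mice. Group means listed by the study under its group names matched this assignment for all 1999 genes that could be read, within a relative tolerance of 0.001, and for 0 genes when the groups were exchanged. Total counts ran from 21507911 to 28392184 per library. Levels are given as CPM, counts scaled to a common library size by TMM, and as FPKM, which also divides by gene length, where genes are compared with each other. Sox2 had 14.8 to 29.5 CPM in the Ctrl libraries and 2.69 to 3.16 CPM in the Sox2 cKO libraries, and fell by 2.86 ± 0.24 (SE) on the log2 scale (edgeR adjusted p = 0.00096). Over the 16137 genes that passed the filter on low counts, 24.6% were called at an adjusted p of 0.05, 12.4% lower and 12.2% higher in Sox2 cKO. With limma on log2(FPKM + 1), which scales by total counts, 718 genes were lower and 2267 higher, and log2 fold changes moved up by a median of 0.09. Log2 fold changes from edgeR fell with gene length, with a median of 0.35 in the shortest and -0.32 in the longest of 10 length bins that hold equal numbers of genes. Each result below is therefore given with a gene length correction where that changes it. After the correction 7.0% of genes were called lower and 6.05% higher.

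SOX2-bound windows near the members are shown first. Ntrk2 and Gfra1, which fell, each have 1 within the gene and at least 1 outside it. Ntrk3, which was not called, has 1 outside it, and Ret, which fell without the length correction, has none. The share of all genes with such a window was not computed, and the part of the windows in the fold changes was not tested. The windows come from the study's list of the most enriched SOX2 sites in adult cerebral cortex, so they do not show binding in the spinal cord. For a set of astrocyte genes that includes Ntrk2, the paper also reports SOX2 binding by ChIP-qPCR in primary astrocytes cultured from brain. Of the 1055 windows of 100 bases, 6 lie in a member or have its annotated start as the nearest one of a protein-coding gene. They belong to Ntrk2, Gfra1 and Ntrk3, and the other 5 members have none in this list, which leaves out less enriched sites. In each sequence the listed SOX2 match is in capitals, its flanks are in lower case, and it is written 5′ to 3′ on the strand of the match. Coordinates are of mm10.
Ntrk2, window chr13:58838115-58838214, minus strand: acaaagaaagAAAACAAAGAAg
Ntrk2, window chr13:59143487-59143586, minus strand: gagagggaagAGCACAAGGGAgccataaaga
Ntrk2, window chr13:59144335-59144434, minus strand: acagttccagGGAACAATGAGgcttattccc
Gfra1, window chr19:58251297-58251396, plus strand: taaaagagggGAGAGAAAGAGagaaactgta
Gfra1, window chr19:58107820-58107919, plus strand: acacggggagGGAAGAATGGGgccaat
Ntrk3, window chr7:77966818-77966917, plus strand: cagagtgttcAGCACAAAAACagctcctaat

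The first Ntrk2 window lies 31.6 kb after the annotated start of the gene, in an intron of its protein-coding transcripts that a transcript with a retained intron also covers. The other Ntrk2 windows lie 9.6 and 10.4 kb past its end. One Gfra1 window is intronic, 204.6 kb after the start, and the other lies 127.7 kb past the end of the gene, within Atrnl1. The Ntrk3 window lies 209.1 kb past the end of Ntrk3. The 5-letter core CAAAG is in the match of 1 of the 6 windows, the intronic Ntrk2 window, and in that of 368 of all 1055 windows.

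Promoter sequence from RefSeq (GRCm38.p6, 250 bases before to 50 bases after the start) matched 6 of the 8 members by symbol, and none matched for Ntrk3 and Ret. The promoters of Gfra1 and Ntrk2 are shown as those of the members whose fall stayed called after the gene length correction. Matches to CAAAG on either strand (CAAAG or CTTTG) are in capitals.
Gfra1 promoter, chr19:58455349-58455648, minus strand: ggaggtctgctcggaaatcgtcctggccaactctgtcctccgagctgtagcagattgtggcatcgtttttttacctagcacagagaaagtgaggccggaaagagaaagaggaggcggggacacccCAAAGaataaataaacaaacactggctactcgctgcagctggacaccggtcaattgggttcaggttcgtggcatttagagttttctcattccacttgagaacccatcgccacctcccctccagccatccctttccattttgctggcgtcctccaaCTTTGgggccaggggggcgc
Ntrk2 promoter, chr13:58806319-58806618, plus strand: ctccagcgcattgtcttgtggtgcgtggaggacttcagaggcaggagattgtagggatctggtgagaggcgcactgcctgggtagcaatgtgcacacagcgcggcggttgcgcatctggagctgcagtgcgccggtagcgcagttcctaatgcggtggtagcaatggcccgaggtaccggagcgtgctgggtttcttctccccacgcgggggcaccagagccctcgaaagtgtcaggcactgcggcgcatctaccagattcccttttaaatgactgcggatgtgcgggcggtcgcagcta

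The Gfra1 promoter holds 2 matches to CAAAG and the Ntrk2 promoter 0, and 53.9% of all 32851 promoters hold at least 1. The longer form AACAAAG, on either strand, is in 5.85% of all promoters and in none of the promoters of the 6 members. These are matches of letters in a fixed window and not sites.

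Among the members, the receptor genes other than Ngfr had higher FPKM than the ligand genes. That order depends on the length behind FPKM, which for Ntrk3 was 3300 bases against 30170 annotated exonic bases. For Ntrk2 it was 8541 against 19292. The length bins and the length correction use the same lengths and carry the same limit. Per length, the mean level in Ctrl was 58.3 ± 5.22 FPKM (SD, n = 3) for Ntrk2, 22.6 ± 2.62 FPKM for Ret, 20.8 ± 3.43 FPKM for Gfra1 and 10.7 ± 1.07 FPKM for Ntrk3. It was 1.67 ± 0.198 FPKM for Bdnf and 1.26 ± 0.216 FPKM for Ngfr. Cntf, at 0.288 ± 0.173 FPKM, and Ntf3, at 0.0408 ± 0.0189 FPKM, were the lowest. In Ctrl the libraries of Ret and Gfra1 overlapped, and those of every other neighbouring pair in this order did not. In Sox2 cKO the order was Ntrk2 at 40.7 ± 2.69 FPKM, Ret at 18.9 ± 1.16, Gfra1 at 13.5 ± 0.922, Ntrk3 at 11.97 ± 1.11, Bdnf at 2.10 ± 0.265, Ngfr at 1.13 ± 0.32, Ntf3 at 0.162 ± 0.052 and Cntf at 0.142 ± 0.0551 FPKM. There Gfra1 overlapped Ntrk3, Ntf3 overlapped Cntf, and Ret no longer overlapped Gfra1.

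**Figure D1:**
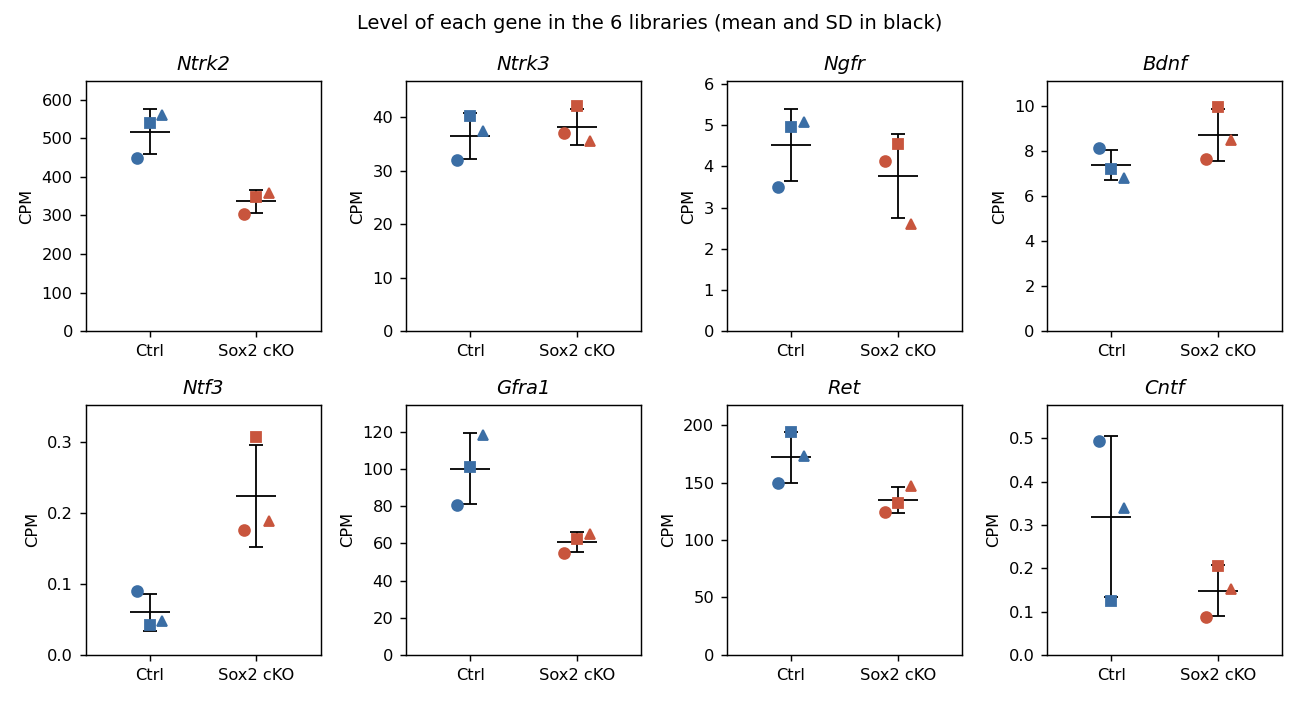
Level of each of the 8 genes in CPM (vertical axis, from 0) in the 3 Ctrl and 3 Sox2 cKO libraries. Blue points are Ctrl libraries 2 (circle), 4 (square) and 6 (triangle), red points are Sox2 cKO libraries 1 (circle), 3 (square) and 5 (triangle), and black marks show the mean and SD. The groups are apart for Ntrk2, Gfra1 and Ret, which are lower in Sox2 cKO, and for Ntf3, which rests on 22 reads in all.

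Of the 6 members tested, 3 fell in Sox2 cKO, 0 rose and 3 were not called, against 12.4% of all tested genes lower and 12.2% higher. Those that fell were the receptors Ntrk2, Gfra1 and Ret, and the 6 had a median log2 fold change of -0.31 against 0.02 over all tested genes. With the length correction 2 of the 6 fell and 0 rose, against 7.0% and 6.05%, with a median of -0.16 against 0.00. Ntrk2 and Ret are in the longest of the 10 length bins, where edgeR without the correction called 46.4% of genes lower. The groups of Ntrk2, Gfra1 and Ret did not overlap either, with every Sox2 cKO library below every Ctrl library. That pattern was seen in 22.1% of tested genes. As with the calls over all genes, those of the members were lost in edgeR without Ctrl library 4 or Sox2 cKO library 1, where 13 and 5 of all genes were called lower, and so were those of all other ligand, receptor and signalling genes named below as rising or falling. The opposite pattern, found in 22.6% of tested genes, was seen in 0 tested members. Ntf3 and Cntf had too few reads to pass the filter.

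Ntrk2 (ENSMUSG00000055254, chr13:58806569-59133970, plus strand) encodes TrkB. Its level was 450.1 CPM in Ctrl library 2, 540.1 CPM in library 4 and 561 CPM in library 6. Sox2 cKO libraries 1, 3 and 5 had 303, 348 and 358 CPM. The highest Sox2 cKO library was below the lowest Ctrl library. Sox2 cKO libraries averaged 337 ± 29.1 CPM (SD, n = 3), which is 65.1% of the Ctrl mean of 517 ± 58.9 CPM (SD, n = 3). Ntrk2 fell by 0.62 ± 0.11 (SE) on the log2 scale, with an edgeR adjusted p of 0.012. With an exact two-sided permutation test of its CPM alone, p was 0.1, the smallest that 3 libraries against 3 can give. With 8541 bases it is in the longest of the 10 length bins, and after the gene length correction it fell by 0.29 ± 0.06 (SE) with an edgeR adjusted p of 0.024. Without Ctrl library 4 or Sox2 cKO library 1 the call was lost, with log2 fold changes of -0.59 and -0.55 and edgeR adjusted p of 0.065 and 0.066. DESeq2 kept it without any 1 of the 6 libraries, and the length-corrected fit kept it in 2 of 6 such fits. GENCODE lists 10 transcripts for the gene, and counts per gene do not separate full-length from truncated TrkB.

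Ntrk3 (ENSMUSG00000059146, chr7:78175959-78738012, minus strand) encodes TrkC. Its levels were 31.9, 40.3 and 37.4 CPM in Ctrl and 37.0, 42.0 and 35.6 CPM in Sox2 cKO, so the groups overlapped. The log2 fold change was 0.07 ± 0.11 (SE, edgeR adjusted p = 0.68), with a 95% interval from -0.15 to 0.28. That interval does not reach the estimate for Ntrk2.

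The difference between TrkB and TrkC genes was also measured within each library, where library scaling cancels and gene length does not. The 6 ratios used were chosen with these values already known. The log2 ratio of Ntrk2 to Ntrk3 counts was 3.82, 3.75 and 3.91 in Ctrl, against 3.04, 3.05 and 3.33 in Sox2 cKO (libraries in the same order). The 2 groups did not overlap, and the mean in Sox2 cKO was lower, with a difference of -0.68. The exact permutation p was 0.1, the smallest possible, and 0.12 after Benjamini-Hochberg adjustment over 6 ratios, so this design could not reach 0.05. The counts are not corrected for length, and with that correction the log2 fold changes were -0.29 for Ntrk2 and 0.06 for Ntrk3.

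Ngfr (ENSMUSG00000000120, chr11:95568818-95587735, minus strand) encodes p75, a receptor of the tumour necrosis factor receptor family that Schwann cells and sensory neurons carry. It had 3.50, 4.95 and 5.07 CPM in Ctrl and 4.13, 4.54 and 2.61 CPM in Sox2 cKO, and the groups overlapped. The log2 fold change was -0.26 ± 0.24 (SE, edgeR adjusted p = 0.44), and the 95% interval ran from -0.72 to 0.20. A change in p75 of the size seen for Ntrk2 lay inside that interval. None of the 12 Schwann cell markers was called, and their summed level was 918 to 1024 CPM in Ctrl and 832 to 910 CPM in Sox2 cKO. Most of that sum was Mal, a gene also abundant in oligodendrocytes, with 665 to 759.9 CPM in Ctrl and 575 to 636 CPM in Sox2 cKO. With the length correction 1 of the 12 was called, Mal, which fell by 0.30 (adjusted p = 0.033). Without Mal the other 11 markers summed to 206 to 291 CPM in Ctrl and 256 to 281 CPM in Sox2 cKO, and the groups overlapped.

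Of the 9 genes listed for p75 and its partners, 4 fell and 0 rose, against 12.4% of all tested genes lower and 12.2% higher. With the length correction 2 of the 9 fell and 0 rose, against 7.0% and 6.05%. Sort1 and Sorl1 are in the longest of the 10 length bins, where edgeR without the correction called 46.4% of genes lower. Sort1 encodes sortilin, which pairs with p75 to bind pro-neurotrophins, and it had 422 to 487 CPM in Ctrl and 295 to 341 CPM in Sox2 cKO. It fell by 0.49 ± 0.09 (SE) on the log2 scale (edgeR adjusted p = 0.013), and by 0.23 with the length correction (adjusted p = 0.04). Tnfrsf19, which encodes the p75-related receptor TROY, had 52.1 to 58.1 CPM in Ctrl and 38.9 to 43.7 CPM in Sox2 cKO. It fell by 0.45 ± 0.08 (SE, edgeR adjusted p = 0.013), and by 0.33 with the length correction (adjusted p = 0.024). The sortilin relatives Sorcs2 and Sorl1 fell by 0.53 and 0.59, with edgeR adjusted p of 0.027 and 0.014. With the length correction both calls were lost (adjusted p = 0.082 and 0.074). The remaining partners were not called. Log2 fold changes were 0.00 for Sorcs1, -0.14 for Sorcs3, -0.09 for Lingo1 and 0.32 for the Nogo receptor gene Rtn4r.

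Bdnf (ENSMUSG00000048482, chr2:109674700-109727007, plus strand), which encodes the main ligand of TrkB, was low and did not pass the test. It had 8.12, 7.19 and 6.81 CPM in Ctrl and 7.64, 9.93 and 8.50 CPM in Sox2 cKO. The groups overlapped, with Ctrl library 2 above Sox2 cKO library 1. The log2 fold change was 0.24 ± 0.15 (SE, edgeR adjusted p = 0.25) and the 95% interval ran from -0.05 to 0.53. Of its exonic bases 14.4% are also exonic in Gm45346 on the other strand, and the strand setting of the counting is not stated. The log2 ratio of Ntrk2 to Bdnf counts was 5.79, 6.23 and 6.36 in Ctrl and 5.31, 5.13 and 5.397 in Sox2 cKO, without overlap. Its mean differed by -0.85 (exact permutation p = 0.1, adjusted p = 0.12 over 6 ratios). With the length correction the log2 fold changes were -0.29 for Ntrk2 and 0.32 for Bdnf.

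Ntf3 (ENSMUSG00000049107, chr6:126101412-126166910, minus strand) encodes NT-3, the ligand of TrkC. It had 2, 1 and 1 reads in Ctrl and 4, 9 and 5 reads in Sox2 cKO. Every Sox2 cKO library was above every Ctrl library, but the gene was not tested because its counts were too low. Relative to total counts, its reads in Sox2 cKO were 4.11 times those in Ctrl, with an exact 95% counting interval of 1.35 to 16.7 from 4 reads in Ctrl and 18 in Sox2 cKO. That interval covers counting error only, not the spread between mice, and without the filter the edgeR adjusted p was 0.19.

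Ntf5, which encodes NT-4, was not tested and had 1, 5 and 4 reads in Ctrl and 4, 6 and 2 reads in Sox2 cKO.

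Gfra1 (ENSMUSG00000025089, chr19:58235604-58455909, minus strand) encodes GFRα1, the co-receptor that binds GDNF. Ctrl libraries 2, 4 and 6 had 80.5, 101.3 and 118.6 CPM, against 54.6, 62.5 and 65.05 CPM for libraries 1, 3 and 5 of Sox2 cKO. All 3 Sox2 cKO libraries were below the lowest Ctrl library. Sox2 cKO libraries averaged 60.7 ± 5.43 CPM (SD, n = 3), which is 60.7% of the Ctrl mean of 100.1 ± 19.0 CPM (SD, n = 3). Gfra1 fell by 0.72 ± 0.13 (SE) on the log2 scale, with an edgeR adjusted p of 0.013. It was the largest fall among the 6 tested members, and with 4641 bases the gene is in a length bin whose median log2 fold change was -0.10. After the length correction it fell by 0.61 ± 0.11 (SE) with an edgeR adjusted p of 0.019. Without Ctrl library 4 or Sox2 cKO library 1 the call was lost, at -0.71 and -0.65 with edgeR adjusted p of 0.065 and 0.066, whereas DESeq2 kept it in 6 of 6 fits without a library and the length-corrected fit in 2 of 6. Of its exonic bases 7.6% are also exonic in Gm16277 on the other strand.

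Ret (ENSMUSG00000030110, chr6:118151745-118197718, minus strand) encodes the receptor kinase shared by the GDNF family. It had 149.5, 194 and 173 CPM in Ctrl and 125, 132 and 147 CPM in Sox2 cKO. Sox2 cKO library 5 lay just below Ctrl library 2, and the groups did not overlap. Ret fell by 0.36 ± 0.11 (SE) on the log2 scale with an edgeR adjusted p of 0.039. With the gene length correction the log2 fold change was -0.07 ± 0.07 (SE) and the adjusted p was 0.55, so the call was lost. It was also lost with limma on log2(FPKM + 1), at -0.24 with an adjusted p of 0.11. The genes of its length bin had a median log2 fold change of -0.32, close to that of Ret. The edgeR call was kept in 2 of the 6 fits without a library, those without Ctrl library 2 or Sox2 cKO library 5, and in the other 4 the adjusted p was 0.097 to 0.16. Motor neurons are a known site of RET, and of their 8 markers Slc18a3, the vesicular acetylcholine transporter, fell by 0.46 (edgeR adjusted p = 0.029) and the other 7 were not called. The summed level of these markers was 546 to 577 CPM in Ctrl and 553 to 565 CPM in Sox2 cKO.

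**Figure D2:**
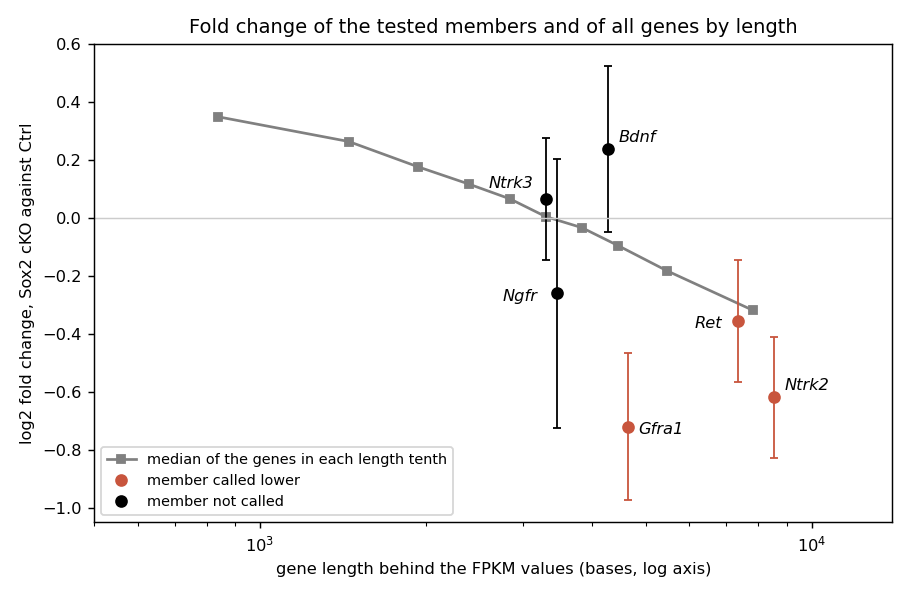
Log2 fold change of the 6 tested members (vertical axis, bars of 95% intervals) against gene length in bases (log axis), with the median of all genes in each length bin as grey squares at the median length. Ret, at -0.36, lies near the median of its length bin, -0.32, whereas Gfra1 and Ntrk2, at -0.72 and -0.62, lie below the medians of theirs, -0.10 and -0.32.

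The 4 GFRα genes and the alternative GDNF receptor did not all move one way. Ncam1, which encodes a cell adhesion molecule that can bind GDNF with GFRα1, had 201 to 253 CPM in Ctrl and 131 to 156 CPM in Sox2 cKO. It fell by 0.69 ± 0.11 (SE, edgeR adjusted p = 0.012), and by 0.66 with the length correction (adjusted p = 0.015). Gfra4, which encodes the persephin receptor, had 22.2, 16.7 and 16.4 CPM in Ctrl and 31.2, 28.8 and 25.9 CPM in Sox2 cKO. It rose by 0.64 ± 0.13 (SE, edgeR adjusted p = 0.014), and by 0.44 with the length correction (adjusted p = 0.028). Gfra2, which encodes the neurturin receptor, had a mean of 23.35 ± 1.45 CPM (SD, n = 3) in Ctrl and 22.37 ± 1.44 CPM in Sox2 cKO. Its log2 fold change was -0.06 ± 0.09 (SE, edgeR adjusted p = 0.66). Gfra3, the artemin receptor gene, was not tested and had 0, 3 and 4 reads in Ctrl and 1, 1 and 3 reads in Sox2 cKO.

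Within libraries, the log2 ratio of Gfra1 to Gfra4 counts differed most of the 6. It was 1.86, 2.60 and 2.86 in Ctrl and 0.807, 1.116 and 1.328 in Sox2 cKO, a mean difference of -1.35. The ratio of Gfra1 to Gfra2 differed by -0.65 and that of Gfra1 to Ret by -0.36, also without overlap. For each of these the exact permutation p was 0.1 and the adjusted p 0.12 over 6 ratios. The ratio of Ntrk2 to Gfra1 overlapped between groups and differed by 0.09 (exact permutation p = 0.4, also after adjustment). The counts are not corrected for length, and with that correction the log2 fold changes of these genes were -0.29 and -0.61.

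**Figure D3:**
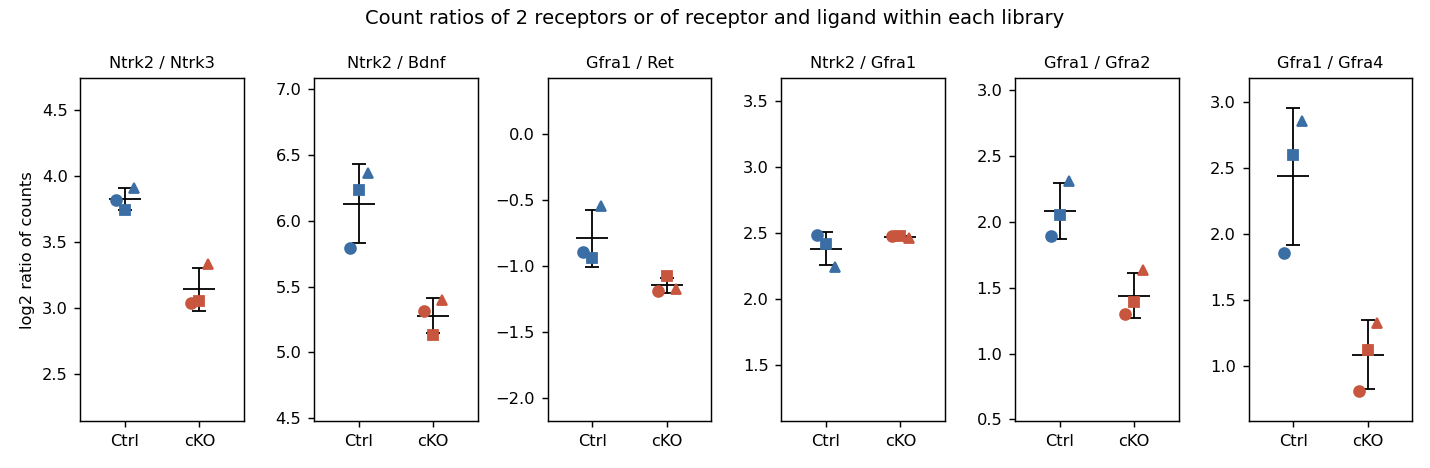
Log2 ratio of the counts of 2 genes within each library (vertical axes, each spanning the same number of log2 units) for 6 pairs. Blue and red points are Ctrl and Sox2 cKO libraries, with the mean and SD in black. The groups are apart for 5 of the 6 ratios, and the ratio of Ntrk2 to Gfra1 overlaps, with means of 2.38 in Ctrl and 2.47 in Sox2 cKO.

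Among the ligands of the GDNF family, Gdnf, Artn and Pspn were scarce. Gdnf had 0.494, 0.0832 and 0.193 CPM in Ctrl and 0.395, 0.648 and 0.718 CPM in Sox2 cKO, and the groups overlapped. Its log2 fold change was 1.21 ± 0.55 (SE, edgeR adjusted p = 0.13). Without Ctrl library 2, the highest of Ctrl, it was 2.09 and was called (edgeR adjusted p = 0.024), and without Ctrl library 4 it was 0.76 (adjusted p = 0.37). The neurturin gene Nrtn was more abundant, at 3.27 ± 0.295 FPKM (SD, n = 3) in Ctrl and 3.93 ± 0.425 FPKM in Sox2 cKO. Nrtn had a log2 fold change of 0.16 and the artemin gene Artn one of -0.10, with edgeR adjusted p of 0.51 and 0.88. The persephin gene Pspn was not tested and had 6, 4 and 4 reads in Ctrl and 14, 13 and 8 reads in Sox2 cKO.

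Cntf (ENSMUSG00000079415, chr19:12763660-12765632, minus strand) encodes ciliary neurotrophic factor, a cytokine that Schwann cells and astrocytes make. It had 11, 3 and 7 reads in Ctrl and 2, 6 and 4 reads in Sox2 cKO, the groups overlapped and the gene was not tested. Relative to total counts, its reads in Sox2 cKO were 0.522 of those in Ctrl, with an exact 95% counting interval of 0.234 to 1.11. Of the exonic bases of Cntf, 78.9% are also exonic in Zfp91 on the same strand, which had 4350 to 7232 reads per library. A read there may have been left uncounted as ambiguous, so the level of Cntf is uncertain.

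Of the 3 CNTF receptor subunits, 2 were called lower, against 12.4% of all tested genes. Cntfr, which encodes CNTFRα, had 95.9, 124.6 and 120.6 CPM in Ctrl and 81.2, 84.4 and 100.3 CPM in Sox2 cKO, and Sox2 cKO library 5 overlapped the Ctrl range. It fell by 0.36 ± 0.12 (SE, edgeR adjusted p = 0.047), and by 0.53 with the length correction (adjusted p = 0.032). That call was kept in 2 of the 6 edgeR fits and 2 of the 6 DESeq2 fits without a library, with an edgeR adjusted p of 0.13 to 0.18 without Ctrl library 4 or 6 or Sox2 cKO library 1 or 3. Upper quartile scaling and limma lost it too. Il6st, which encodes the shared signalling subunit gp130, had 178, 238 and 295 CPM in Ctrl and 113, 126 and 123 CPM in Sox2 cKO. It fell by 0.97 ± 0.15 (SE, edgeR adjusted p = 0.012), and by 0.63 with the length correction (adjusted p = 0.019). Lifr, which encodes the LIF receptor, was not called at -0.21 ± 0.13 (SE, edgeR adjusted p = 0.25). Its value was 0.16 with the length correction (adjusted p = 0.16), and without Ctrl library 2 it was called at -0.34 (adjusted p = 0.011). Clcf1, which encodes a further ligand of this receptor family, had a log2 fold change of 0.54 with an edgeR adjusted p of 0.18. Lif was not tested, with 14, 7 and 6 reads in Ctrl and 12, 9 and 7 reads in Sox2 cKO.

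**Figure D4:**
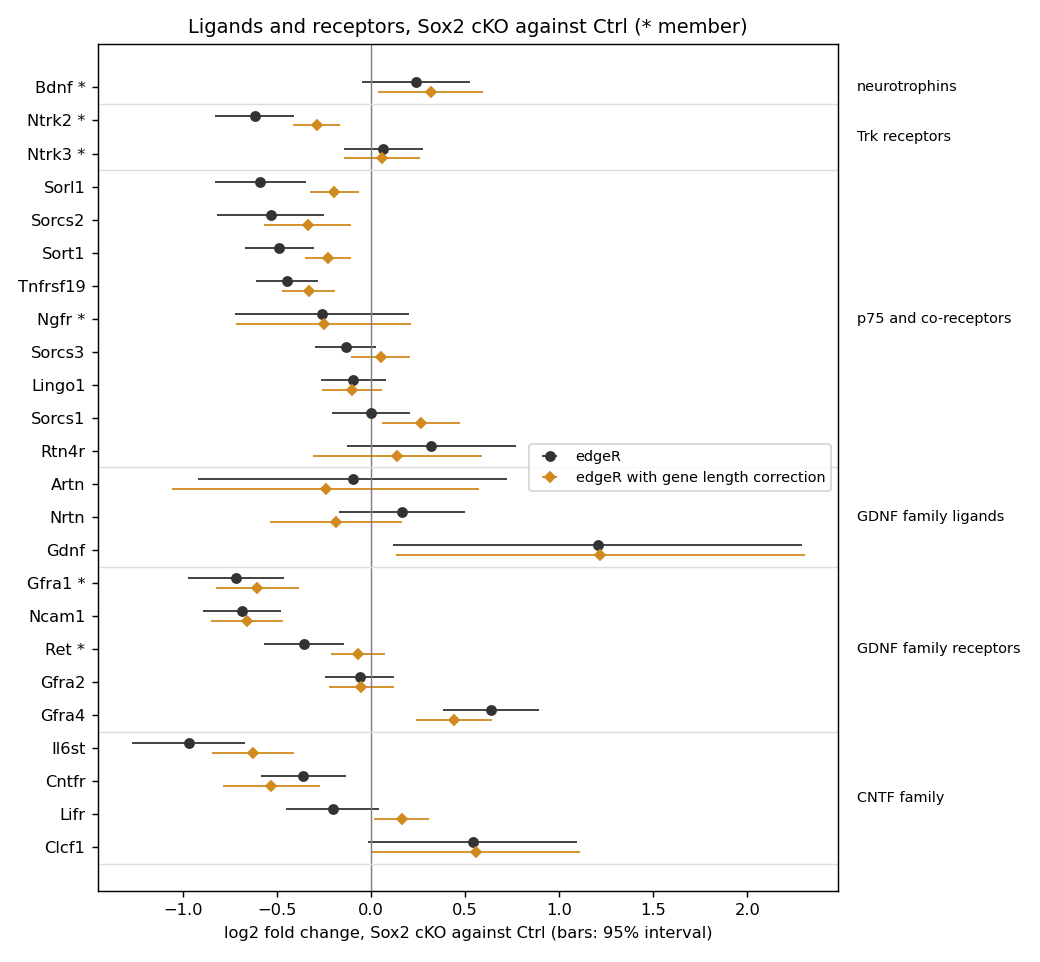
Log2 fold change of Sox2 cKO against Ctrl (horizontal axis) for tested ligands and receptors, grouped by role, from edgeR (dark circles) and from edgeR with the gene length correction (orange diamonds), with bars of 95% intervals. Ntrk2, Gfra1, Ncam1 and Il6st lie below 0 in both fits and Gfra4 above 0. Ret moves from -0.36 to -0.07, and the ligands Gdnf, Artn and Clcf1 have the widest bars.

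Over the whole list of 128 genes of these pathways, of which 118 were tested, 33 fell, 7 rose and 78 were not called, against 12.4% lower and 12.2% higher over all tested genes. With the length correction 16 fell and 4 rose, against 7.0% and 6.05%. The median log2 fold change was -0.03, against 0.02 over all tested genes. By role, 8 of the 28 Trk adaptor genes fell and 2 rose, 11 of the 30 kinases and their substrates fell and 1 rose, and 1 of the 14 target genes fell and 1 rose. Among the processing enzymes 2 of the 8 tested fell and 0 rose, and among the p75 adaptors 1 of the 11 tested fell and 2 rose. With the length correction 5 Trk adaptors fell and 2 rose, 2 kinases fell and 1 rose, and 1 target gene fell and 0 rose. Of the processing enzymes 1 then fell and 0 rose, and the p75 adaptors had 0 lower and 0 higher.

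Of the called genes below the receptors, the 12 of largest fold change are named here. Dok6, an adaptor of the DOK family, fell by 1.11 ± 0.30 (SE, edgeR adjusted p = 0.025), with 11.5 to 22.03 CPM in Ctrl and 4.96 to 11.6 CPM in Sox2 cKO, which just overlapped. Shc3, a neuronal SHC adaptor, fell by 0.75 ± 0.19 (SE, edgeR adjusted p = 0.021). The docking protein genes Gab1 and Gab2 fell by 0.51 and 0.53 (edgeR adjusted p = 0.012 and 0.013). These 4 calls were kept with the length correction, at -1.05, -0.997, -0.38 and -0.31. Spry2, an inhibitor of receptor kinase signalling, fell by 0.67 ± 0.14 (SE, edgeR adjusted p = 0.014), and by 0.83 with the correction. Gsk3b, a kinase that AKT inhibits, fell by 0.72 and Pcsk6, a proprotein convertase, by 0.51 (edgeR adjusted p = 0.015 and 0.013). Both calls were kept with the correction, at -0.40 and -0.42. Braf, a kinase of the MAPK cascade, fell by 0.57 (edgeR adjusted p = 0.016), a call lost with the correction (adjusted p = 0.078).

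The genes of these 12 that rose were Bex1, Cdk5, Prkcd and Bex3. Cdk5, a kinase that phosphorylates TrkB, had 63.9 to 86.7 CPM in Ctrl and 105.2 to 122 CPM in Sox2 cKO, and rose by 0.63 ± 0.12 (SE, edgeR adjusted p = 0.013). Prkcd, a protein kinase C gene, rose by 0.60 ± 0.12 (SE, edgeR adjusted p = 0.014). Both calls were kept with the length correction. Bex1 and Bex3, small proteins that bind p75, rose by 0.64 and 0.51 (edgeR adjusted p = 0.031 and 0.014), and with 866 and 933 bases they are short genes whose calls were lost with the correction (adjusted p = 0.26 and 0.17).

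Of 16 astrocyte markers 7 fell, 1 rose and 8 were not called, against 12.4% of all tested genes lower and 12.2% higher. Their summed level was 9706 to 11710 CPM in Ctrl and 7586 to 7890 CPM in Sox2 cKO. Gfap, the astrocyte intermediate filament gene, fell by 1.11, Aqp4 by 0.44, Aldh1l1 by 0.37 and Slc1a2 by 0.62. S100b, which encodes a calcium-binding protein of glia, was the marker that rose, by 0.71 (edgeR adjusted p = 0.023). With the length correction 5 of the 16 were called lower and 0 higher. The calls of Slc1a2 (-0.21, adjusted p = 0.094), Aldh1l1 (-0.30, adjusted p = 0.051), Slc1a3 (-0.33, adjusted p = 0.057) and S100b (0.47, adjusted p = 0.062) were lost. Agt was among the 5 (-0.48, adjusted p = 0.031) but was not called without the correction (edgeR adjusted p = 0.08). All 16 had reads in every library. Their part in the fall of Ntrk2 and Gfra1 was not tested. Of 7 markers of oligodendrocyte precursors 6 fell and 0 rose, with a summed level of 468 to 616 CPM in Ctrl and 378 to 391 CPM in Sox2 cKO. With the length correction 3 of the 7 were called lower, and their part was not tested either. Of 11 neuron markers 1 was called, Stmn2, which rose by 0.30 (edgeR adjusted p = 0.038), a call lost with the length correction (adjusted p = 0.26). Their summed level was 10010 to 10520 CPM in Ctrl and 10100 to 10460 CPM in Sox2 cKO.

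Sensory neurons carry Trk receptors and RET, and the summed level of their 10 markers was 29.6 to 52.1 CPM in Ctrl and 69.5 to 97.05 CPM in Sox2 cKO. Of these markers 5 were tested, and only Calca, which encodes the neuropeptide CGRP and is also expressed in motor neurons, was called, higher by 1.43 (edgeR adjusted p = 0.018). Calca carried the difference in the sum, with 11.8 to 37.5 CPM in Ctrl and 48.0 to 82.5 CPM in Sox2 cKO, and the other 9 markers summed to 14.7 to 28.8 CPM in Ctrl and 14.5 to 20.9 CPM in Sox2 cKO. The sodium channel gene Scn10a had 3.95 CPM in Ctrl library 4 and 1.66 CPM in Sox2 cKO library 5, and at most 0.136 CPM in the other 4 libraries. Meningeal fibroblast markers, 0 of 10 called, had a summed level of 249 CPM in Ctrl library 6 and 530 to 689 CPM in the other 5 libraries. Of 8 endothelial markers 1 was called, and their summed level was highest in Sox2 cKO library 1 at 323 CPM against 218 to 244 CPM elsewhere. Their part in the members' values was not tested.

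The genes whose log2 CPM most resembled that of Ntrk2 over the 6 libraries were Gabrb1, Add3, Secisbp2l, Zfp609 and Ncam1, each with a Pearson r of 0.998 or more. Such likeness was common, since 14.0% of the 10124 genes compared had an r above 0.95 with Ntrk2. With length-corrected levels their r was 0.965, 0.979, 0.995, 0.988 and 0.975. For Ret the nearest were Dlc1, Csmd2, Ube4b, Dgki and Gbf1, with r from 0.993 to 0.997. With length-corrected levels their r was 0.884, 0.117, 0.949, 0.759 and 0.859, lowest for Csmd2, a gene of 12964 bases. For Ntrk3 the nearest were 0610010F05Rik, Tubb6, Ecel1, Nudt10 and Acvr2a, with r from 0.933 to 0.982, and only 0.0296% of genes passed 0.95. With length-corrected levels these fell to 0.795, 0.633, 0.883, 0.586 and 0.345. The 6 libraries share the group difference and the length trend, so these values are a description of profiles.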

How the data were processed

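The authors aligned reads to mm10 with STAR 2.5, counted reads per gene with HTSeq 0.6.1 and deposited the counts without normalization. FPKM values were also deposited by the authors and use each gene's length and the library's total count; whole lengths were recovered for all 24442 genes with a count, within 0.01 bases. Whether counting used the strand is not stated. No other per-sample columns were present (0), and no row lacked a gene.

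The main test was that of edgeR 4.0.16 under R 4.3.3 (filterByExpr, TMM, quasi-likelihood test, no covariate, Benjamini-Hochberg over all 16137 genes tested, called at 0.05). The length correction was a lowess offset (span 0.3) per library. Standard errors are the fold change over the root of the test statistic. Fits were tested on simulated data. Alternatives were DESeq2 1.42.0, upper quartile scaling, no filter, at least 10 counts in every library, a GC correction, limma 3.58.1 on log2 FPKM with pseudocounts of 1 and 0.1 (mean FPKM of at least 0.1), and leaving out each library. DESeq2 and length-corrected fits that left out a library, and count ratios, were added after the data were seen. Gene names and positions came from GENCODE M21 and matched 34490 of 35275 identifiers.

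The members, gene lists and tests were chosen with earlier results of these data known. Named are all members, the ligands and receptors of the list except for some genes that are not reported here, the 12 called genes of largest fold change below them, the 5 tested genes of at least 10 CPM most correlated with Ntrk2, Ntrk3 and Ret, and up to 4 markers per list in list order; Calca, S100b, Mal, Stmn2 and the neuron and oligodendrocyte precursor lists were added after their values were seen. Of 10 oligodendrocyte and 5 red blood cell markers 0 were called, against 12.4% of all tested genes lower and 12.2% higher. Of 9 microglia markers 1 rose, of 8 mural cell markers 1 rose, and of 7 ependymal markers 2 fell. With the length correction 2 oligodendrocyte markers fell, and of the microglia markers 1 fell and 1 rose. Of the mural cell markers 1 then rose, of the ependymal markers 1 fell, and of the red blood cell markers 0 were called. Depth limits genes under about 1 CPM, whose counting error is large. The labels give 3 samples per group, each from 1 mouse in the study's design.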

Additional observations from a re-analysis of the deposited data

How the results depend on the processing

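No paired analysis was possible because the columns carry no replicate numbers, so the planned fit with a replicate block was not run. Directions of Ntrk2, Gfra1, Ret, Ngfr and Bdnf were kept under every alternative run. Genes called lower and higher over the whole table were 1129 and 976 with the length correction, and 718 and 730 lower with limma on log2 FPKM at pseudocounts of 1 and 0.1, against 2267 and 2282 higher. Pathway genes called lower were 16 under each of these 3, and 4 were called higher with the length correction. The call of Ret was lost with the length correction (-0.0685) and with limma at pseudocounts of 1 (-0.24) and 0.1 (-0.25).

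Leaving out a library, with edgeR or DESeq2, gave 5 to 3089 genes lower and 3 to 3030 higher, 0 to 3 members lower, and 0 to 37 pathway genes lower and 0 to 18 higher. The lowest counts came from edgeR without Sox2 cKO library 1 or Ctrl library 4, and DESeq2 gave at least 1080 lower and 879 higher in such fits. With these fits and the length-corrected fits without a library, log2 fold changes ranged from -0.72 to -0.26 for Ntrk2, -0.87 to -0.48 for Gfra1, -0.46 to -0.0155 for Ret and -0.0378 to 0.14 for Ntrk3, whose negative values came without Ctrl library 2 or Sox2 cKO library 3. The cause was not tested.

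Among pathway genes that were not called, the sign changed for Sorcs1 with the length correction (0.26), GC correction (0.0076), upper quartile scaling (0.0402), no filter (0.0009), at least 10 counts (0.0032) and limma at both pseudocounts (0.0768 and 0.0898), and without a library it ranged from -0.0573 to 0.0925. It changed with the length correction for Sorcs3 (0.0505), Nrtn (-0.19) and Lifr (0.16), and with limma at pseudocounts of 1 and 0.1 for Lingo1 (0.0034 and 0.0036), Artn (0.0014 and 0.0168) and Gfra2 (0.0323 and 0.0364). Without a library Artn ranged from -0.3035 to 0.24, positive without Ctrl library 6 or Sox2 cKO library 5. Depth limits Ntf3, Cntf and those other ligands that rest on few reads, which Bdnf and Nrtn do not. The longer SOX motif form occurred in no promoter of a member.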
